A study of Mus musculus with 13 samples.

Results

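The genes described here encode the intracellular signalling chain that carries the signal of TREM2, a lipid-sensing receptor of microglia: the adaptors Tyrobp (DAP12) and Hcst (DAP10), the kinases Syk, Lyn and Pik3cd, the lipase Plcg2, the exchange factor Vav1, the adaptor Grb2, and the phosphatases Inpp5d (SHIP1) and Ptpn6 (SHP-1). They were selected by symbol and are 10 of the 52636 genes listed for each mouse. Expression was measured by RNA-Seq in resident myeloid cells sorted by FACS from cortex and hippocampus of PS2APP mice aged 14 to 15 months, from 7 PS2APP;Trem2wt mice, of which 5 were female, and 6 PS2APP;Trem2ko mice, of which 5 were female. Both genotypes carried the human presenilin 2 and amyloid precursor protein transgenes of the PS2APP line, which develops β-amyloid plaques, and differed in Trem2, which was either intact or homozygous for a germline null allele. The null allele was made on C57BL/6N and the transgenes were kept on C57BL/6J, every cell of a PS2APP;Trem2ko mouse lacked Trem2, and no mice without the transgenes were in this set, so the 2 groups compare genotypes within amyloid disease only. The sort kept CD11b+CD45+Ccr2-Ly6g- cells, a gate that also takes in perivascular macrophages.

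TREM2 has no signalling motif of its own and pairs in the membrane with DAP12, whose cytosolic tail holds an immunoreceptor tyrosine-based activation motif (ITAM). When Src family kinases such as LYN phosphorylate the tyrosines of that motif, SYK docks there and is activated, and it passes the signal to PLCγ2 and calcium, to VAV1 and the cytoskeleton, and through GRB2 to the ERK kinases. DAP10 carries a different motif that recruits PI3K and GRB2, and SHIP1 and SHP-1 are the phosphatases that end the signal. In microglia the pathway is known for its role in survival, phagocytosis and the response to amyloid plaques.

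The coding sequences of the signalling motifs of both adaptors are printed because they are the only members in which these motifs were found and because both adaptors had the lowest fitted log2 fold changes of the 10 genes between PS2APP;Trem2ko and PS2APP;Trem2wt microglia. Sequences are from the GENCODE M21 annotation of GRCm38, read on the coding strand and spliced, with the codons of the tyrosines that become phosphorylated in capitals. The Tyrobp motif is encoded by exons 4 and 5 of 5, within chr7:30415670-30417382 on the plus strand, and stands at residues 92 to 106 of 114. The Hcst motif is in exon 4 of 4, at chr7:30417821-30417832 on the minus strand, at residues 72 to 75 of 79.
Tyrobp ITAM: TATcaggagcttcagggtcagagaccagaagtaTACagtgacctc
Hcst YXNM: TACatcaacatg
A search of the translated coding sequences for the ITAM pattern found it in 1 of the 10 members, Tyrobp, and in 2.89% of the 21620 genes with a complete coding sequence. The YXNM pattern of Hcst was also found in 1 of the 10 members and in 1.32% of those genes. The 2 adaptor genes are neighbours on chromosome 7: Tyrobp lies at 30413760 to 30417585 on the plus strand and Hcst at 30417712 to 30419854 on the minus strand, so that their 3′ ends face each other with 126 bases between them. They do not overlap, and no 50-base word of either transcript set occurs in another gene.

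Total counts ranged from 26120961 to 114857155 in PS2APP;Trem2wt and from 41567025 to 120569609 in PS2APP;Trem2ko mice. The 10 genes were well covered: the lowest count of any member in any mouse was 218, for Hcst. Trem2 (chr17:48346401-48354147) had an nRPKM, a read count scaled by transcript length and library size, that averaged 1044 ± 141 (SD) over the 7 PS2APP;Trem2wt mice and 0.887 ± 0.734 (SD) over the 6 PS2APP;Trem2ko mice. The summed nRPKM of 10 microglia markers lay between 14672 and 18213 in PS2APP;Trem2wt and between 15369 and 17216 in PS2APP;Trem2ko mice, and 1 of the 10, Cx3cr1, was lower by the test used below. No marker of monocytes (4), border macrophages (6), neurons, astrocytes, oligodendrocytes or endothelial cells (4 each) passed that test. Nor did any of T and NK cells (9 listed, 6 tested), B cells (4 listed, 1 tested) or mast cells and platelets (4 listed, 2 tested). The T and NK marker Klrb1c was called in DESeq2 and voom+limma. Of the 6 T and NK markers tested, 1 had a negative fitted log2 fold change, -2.65, and 5 had positive ones, up to 0.85. The summed level of 6 neutrophil markers, which include the calprotectin genes S100a8 and S100a9, was between 13.1 and 245.6 nRPKM in PS2APP;Trem2wt and between 0.143 and 40.3 nRPKM in PS2APP;Trem2ko mice. All 4 neutrophil markers tested had fitted log2 fold changes between -1.61 and -1.40 without passing the test, and the highest sum was in PS2APP;Trem2wt replicate 2. The platelet markers Itga2b and Ppbp differed by 2.10 (adjusted p = 0.286) and 2.17 (adjusted p = 0.212) on the log2 scale in edgeR, higher in PS2APP;Trem2ko mice but not called, and the 4 mast cell and platelet markers summed to between 0 and 0.444 nRPKM in PS2APP;Trem2wt and between 0.0937 and 4.197 nRPKM in PS2APP;Trem2ko mice. The mast cell markers Cpa3 and Mcpt4 had no count in any mouse, and the neutrophil marker Retnlg had at most 3.

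Of the 10 members, 1 was lower in PS2APP;Trem2ko microglia and none was higher (edgeR's quasi-likelihood test, with an adjusted p over 17086 genes not above 0.05). The gene that fell was Tyrobp, the DAP12 adaptor, by 28.2% (95% interval 16.8 to 38.1% lower). Hcst had the same fitted difference, with a wider interval and no call. The 8 cytosolic members, from Syk to Lyn, had fitted differences close to 0. Across all genes tested, 1.53% were called lower and 0.503% higher. The unadjusted p was 0.05 or less for 2 members, Tyrobp and Hcst, and for 14.8% of all genes tested. In DESeq2 and in voom+limma 1 member was called as well, again Tyrobp, and with female mice only no member was called (adjusted p = 0.0709 for Tyrobp from edgeR). In none of the 10 did the normalised values of the genotypes separate without overlap, which was the case for 1.64% of all genes tested.

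**Figure D1:**
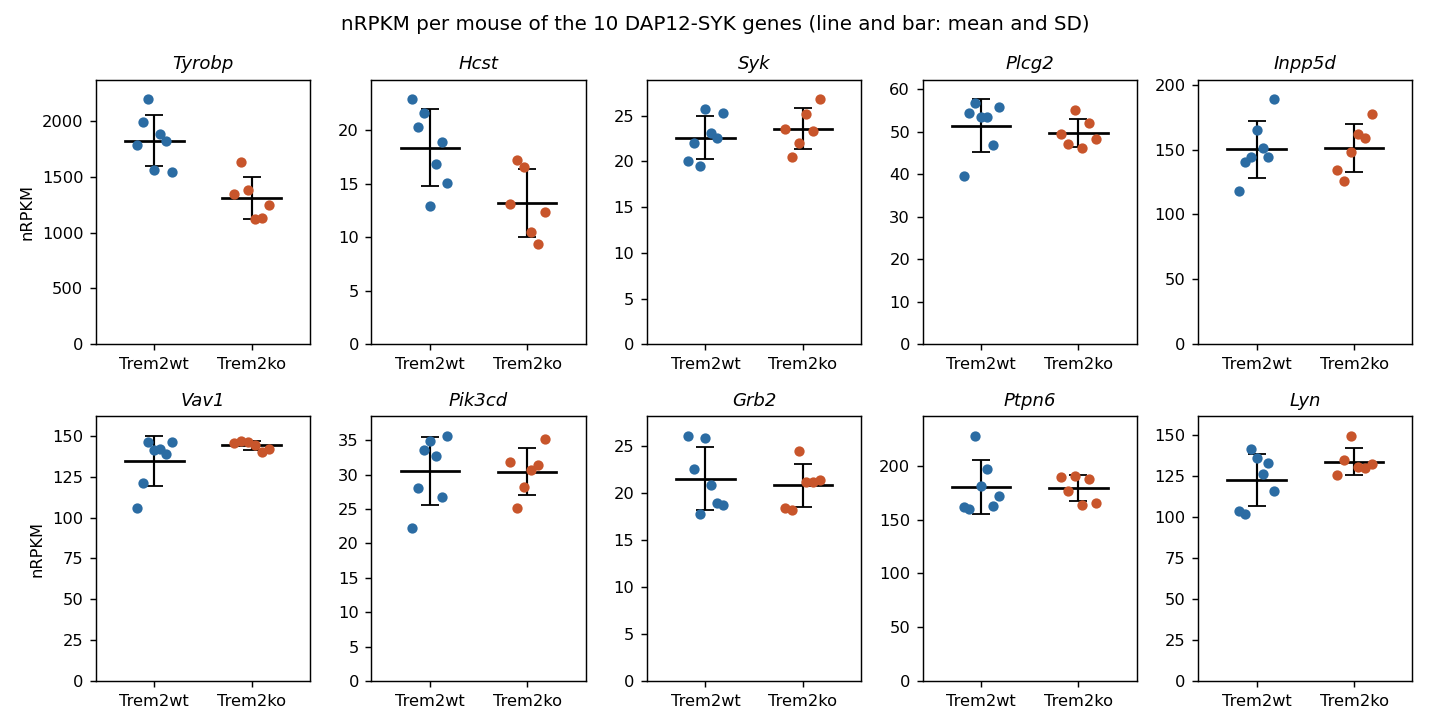
nRPKM of the 10 DAP12-SYK genes in each mouse, with 1 point per mouse, 7 PS2APP;Trem2wt mice in blue and 6 PS2APP;Trem2ko mice in orange, and the mean and SD in black; every axis starts at 0. For Tyrobp 5 of the 6 PS2APP;Trem2ko mice lie below all PS2APP;Trem2wt mice, and for the genes from Syk to Lyn the points of the genotypes are intermixed.

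Tyrobp was by far the most abundant member and stood at the 99.9th percentile of mean nRPKM among the genes tested. Its nRPKM in PS2APP;Trem2wt replicates 1 to 7 was 1790, 1995, 2197, 1562, 1882, 1821 and 1542. In PS2APP;Trem2ko replicates 1 to 6 it was 1350, 1635, 1382, 1124, 1131 and 1251. PS2APP;Trem2ko replicate 2 was above PS2APP;Trem2wt replicates 4 and 7, and the other 5 of its group had less Tyrobp than any PS2APP;Trem2wt mouse. Mean levels were 1827 ± 231 nRPKM (SD, n = 7) with Trem2 and 1312 ± 191 nRPKM (SD, n = 6) without it. On the log2 scale Tyrobp fell by 0.48 (SE 0.10, adjusted p = 0.0202 from edgeR). With 1 mouse left out at a time its log2 fold change stayed between -0.55 and -0.43. The call held in 11 of these 13 fits and was lost without PS2APP;Trem2ko replicate 4 (adjusted p = 0.0507) or replicate 6 (adjusted p = 0.0534). Without PS2APP;Trem2wt replicate 2, the mouse with the highest neutrophil marker sum, the log2 fold change of Tyrobp was -0.46 (adjusted p = 0.0440 from edgeR). PS2APP;Trem2wt replicates 1, 3 and 6 also had higher sums than any PS2APP;Trem2ko mouse, and the part of neutrophils was not tested. In a bulk library, less Tyrobp RNA per cell and fewer cells that carry it cannot be told apart.

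Hcst, the DAP10 adaptor, is best known as the partner of the receptor NKG2D in lymphocytes and also associates with TREM2. Its nRPKM was 22.9, 20.3, 21.6, 12.9, 16.8, 18.9 and 15.1 in PS2APP;Trem2wt replicates 1 to 7. In PS2APP;Trem2ko replicates 1 to 6 it was 13.1, 17.2, 16.5, 10.5, 9.33 and 12.4. The groups overlapped, since 3 PS2APP;Trem2ko mice were below all PS2APP;Trem2wt mice and the other 3 were within their range. The means were 18.3 ± 3.59 (SD, n = 7) and 13.2 ± 3.17 (SD, n = 6), and the log2 fold change of -0.48 had a 95% interval of -0.83 to -0.13 (SE 0.17, adjusted p = 0.172 from edgeR). Hcst was not called in any of the 23 alternative fits, whose adjusted p-values lay between 0.0766 and 0.304. Its residual spread between mice of the same genotype was 0.31 on the log2 scale, against 0.19 for Tyrobp.

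The ratio of Tyrobp to Hcst was nearly the same in both genotypes. On the nRPKM scale Tyrobp exceeded Hcst 78.3-fold to 121.1-fold in PS2APP;Trem2wt and 83.7-fold to 121.2-fold in PS2APP;Trem2ko mice, with geometric means of 100.7 and 101.2. The mean log2 ratios differed by 0.0066 (two-sided exact permutation test over 1716 assignments, p = 0.950, and 0.950 adjusted over 5 ratios). Hcst also followed Tyrobp from mouse to mouse. After each genotype's mean was subtracted on the log2 scale, Pearson's r between them was 0.84 and Spearman's rho 0.81 over 13 mice, and r was 0.81 without the 2 mice with the most extreme Tyrobp values. These correlations are given as descriptions of 13 libraries that differ in depth and in the balance of short and long transcripts.

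Fcer1g, the FcRγ chain that carries an ITAM for Fc receptors and other partners, is the other abundant ITAM adaptor of these cells. Its nRPKM was between 649 and 954 in PS2APP;Trem2wt mice and between 688 and 951 in PS2APP;Trem2ko mice, with nearly coinciding ranges. The log2 fold change of Fcer1g was -0.09 (95% interval -0.29 to 0.12, adjusted p = 0.730 from edgeR). Within genotypes it varied with Tyrobp as Hcst did, with an r of 0.88 over 13 mice. Tyrobp exceeded Fcer1g 2.01-fold to 2.37-fold on the nRPKM scale in PS2APP;Trem2wt mice and 1.57-fold to 1.77-fold in PS2APP;Trem2ko mice. The ranges of this ratio did not overlap, and since it was chosen after the values were seen it is given without a test.

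**Figure D2:**
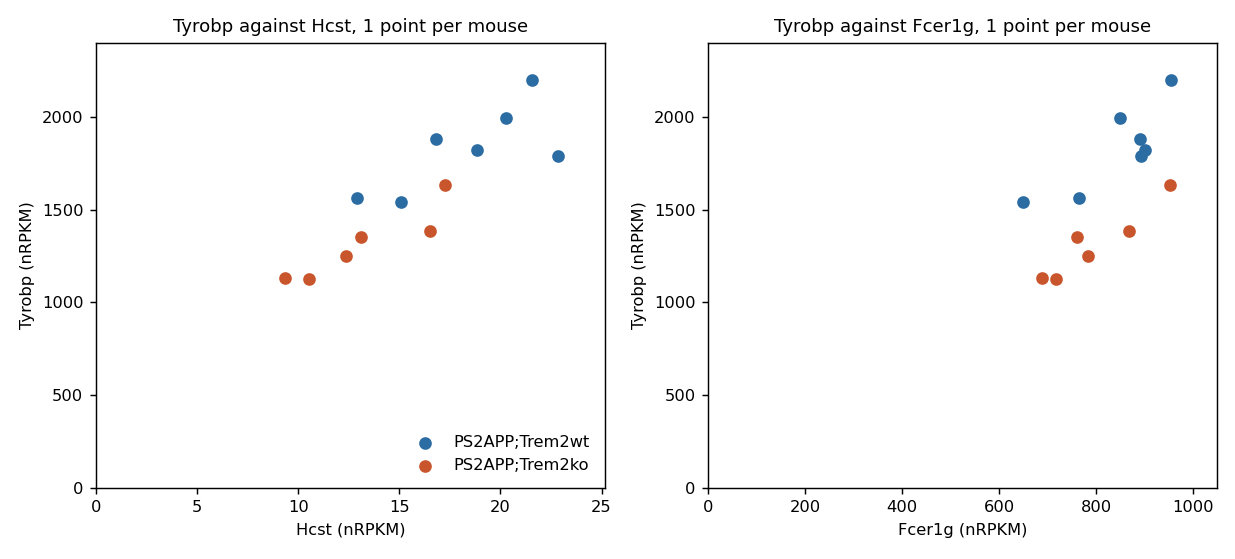
Tyrobp nRPKM of each mouse against its Hcst nRPKM (left) and its Fcer1g nRPKM (right), with PS2APP;Trem2wt mice in blue and PS2APP;Trem2ko mice in orange, all axes starting at 0. On the left the mice of both genotypes overlap in their ratio, with geometric means of 100.7 and 101.2, and on the right the PS2APP;Trem2ko mice lie below the PS2APP;Trem2wt mice, with ratios of at most 1.77 against at least 2.01.

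Syk, the tyrosine kinase that docks on the phosphorylated ITAM, lies at chr13:52583173-52648792. Its nRPKM in PS2APP;Trem2wt replicates 1 to 7 was 20.03, 21.98, 19.5, 25.7, 23.1, 22.5 and 25.3, and in PS2APP;Trem2ko replicates 1 to 6 it was 23.5, 20.5, 22.02, 25.2, 23.4 and 26.8. The genotypes overlapped along almost their whole range. For Syk the log2 fold change was 0.06 (95% interval -0.12 to 0.23, adjusted p = 0.803 from edgeR). Lyn, the Src family kinase that phosphorylates ITAMs and also inhibitory receptors, had 123 ± 15.7 (SD, n = 7) nRPKM in PS2APP;Trem2wt and 134 ± 8.26 (SD, n = 6) nRPKM in PS2APP;Trem2ko mice. The difference of 0.12 on the log2 scale was the highest of the 10 members (95% interval -0.06 to 0.30, adjusted p = 0.535 from edgeR). Of the 50-base words of Lyn 18.3% also occur in Gm11787 or Gm26857, which leaves part of its reads ambiguous.

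Among the effectors, Plcg2, the phospholipase that releases calcium and diacylglycerol signals, had 51.5 ± 6.17 (SD, n = 7) nRPKM in PS2APP;Trem2wt and 49.7 ± 3.32 (SD, n = 6) nRPKM in PS2APP;Trem2ko mice. Its lowest value, 39.5 nRPKM, was in PS2APP;Trem2wt replicate 1, and the other 12 mice lay between 46.3 and 56.8 nRPKM. Pik3cd, the p110δ catalytic subunit of PI3K, had 30.6 ± 4.94 (SD, n = 7) against 30.4 ± 3.42 (SD, n = 6) nRPKM. Vav1, an exchange factor for Rac GTPases, had 135 ± 15.3 (SD, n = 7) against 144 ± 2.65 (SD, n = 6) nRPKM. The PS2APP;Trem2ko mice were between 140.2 and 147.0 nRPKM for Vav1, within the PS2APP;Trem2wt range of 105.9 to 146.6 but for 1 mouse, replicate 2. Grb2, the adaptor that links receptors to the Ras exchange factor SOS, had 21.5 ± 3.40 (SD, n = 7) against 20.8 ± 2.31 (SD, n = 6) nRPKM. The log2 fold changes of these 4 genes were -0.05 for Plcg2, -0.01 for Pik3cd, 0.10 for Vav1 and -0.05 for Grb2, and none was called.

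The phosphatases that oppose the pathway did not differ detectably either. Inpp5d (SHIP1) removes the 5-phosphate from the lipid product of PI3K, and it averaged 150 ± 22.1 nRPKM (SD, n = 7) with Trem2 and 151 ± 18.8 nRPKM (SD, n = 6) without it. Its log2 fold change was 0.0050 (95% interval -0.22 to 0.23, adjusted p = 0.989 from edgeR). Ptpn6 (SHP-1), the tyrosine phosphatase recruited by inhibitory receptors, had 180 ± 24.7 (SD, n = 7) against 179 ± 12.2 (SD, n = 6) nRPKM. Its highest value, 227.7 nRPKM, was in PS2APP;Trem2wt replicate 3. Ptpn6 had a log2 fold change of -0.01 (95% interval -0.19 to 0.17, adjusted p = 0.965 from edgeR). Ptpn6 shares 5.01% of its 50-base words with Gm20531 on the opposite strand, and Grb2 shares 7.54% with Gm12791 and Gm13542.

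**Figure D3:**
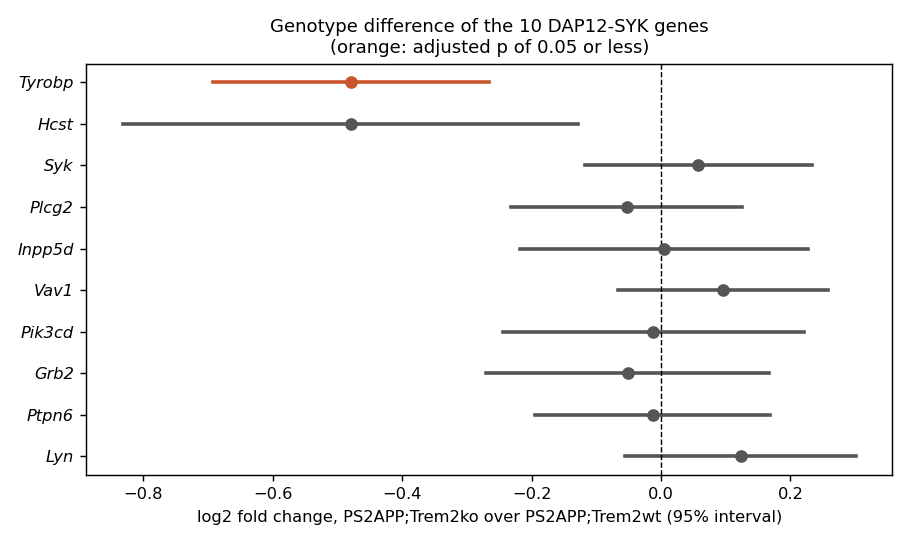
Log2 fold change of each of the 10 genes, PS2APP;Trem2ko over PS2APP;Trem2wt, with its 95% interval from edgeR; orange marks an adjusted p that did not exceed 0.05. The intervals of Tyrobp and Hcst lie below 0, and those of the other 8 genes span 0 and stay between -0.27 and 0.30.

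Over these 8 cytosolic members the 95% intervals together ran from -0.27 to 0.30 on the log2 scale, which corresponds to differences from 17.1% lower to 23.2% higher. Their adjusted p-values were between 0.535 and 0.989. Over all 10 members the median log2 fold change was -0.01 and the median size of the change 0.06, beside 0.0039 and 0.16 over all genes tested. The spread between mice of 1 genotype was also small for most members: it ranked between the 11.7th and the 38.1st percentile of genes tested for every member but Hcst, at the 56.6th. The 10 members stood between the 84.5th and the 99.9th percentile of mean nRPKM, so all genes tested are not matched to them in level. The part of level in these small changes and spreads was not tested.

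The balance of activating to opposing enzymes was compared by 4 ratios of nRPKM, the level of each gene per length. Syk stood at 0.126 of Ptpn6 in PS2APP;Trem2wt and at 0.131 in PS2APP;Trem2ko mice, as geometric means (exact permutation test, p = 0.675). For Lyn to Ptpn6 the geometric means were 0.680 and 0.748, and the mean log2 ratios of -0.56 ± 0.15 (SD, n = 7) and -0.42 ± 0.11 (SD, n = 6) differed by 0.14 (exact permutation test, p = 0.0962). For Syk to Inpp5d the ratios were 0.151 and 0.156 (exact permutation test, p = 0.430), and for Plcg2 to Inpp5d 0.343 and 0.330 (exact permutation test, p = 0.583). None passed after adjustment over the 5 ratios, where the lowest adjusted p was 0.481 from the permutation test. The smallest p these 1716 assignments can give is 0.00058.

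In order of mean nRPKM over all 13 mice the members ranked Tyrobp (1589), Ptpn6 (179.7), Inpp5d (150.7), Vav1 (139.1), Lyn (127.8), Plcg2 (50.7), Pik3cd (30.5), Syk (23.0), Grb2 (21.2) and Hcst (16.0). Tyrobp was above Ptpn6, Lyn above Plcg2 and Plcg2 above Pik3cd in 13 of 13 mice without overlap of their ranges. Pik3cd was above Syk in 13 of 13 mice, although their ranges over mice overlapped. Neighbours among Ptpn6, Inpp5d, Vav1 and Lyn kept their order in 10 to 12 of 13 mice, and Syk was above Grb2 in 9. By nRPKM the docking kinase Syk was thus one of the least abundant of the 10 members, and the adaptor Tyrobp exceeded each other member in every mouse. An order between genes, as of Syk and Grb2, depends on the gene lengths behind nRPKM, and no other lengths were tried.

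Within genotypes the members did not vary as 1 block. Tyrobp had its highest r with Hcst (0.84) and its lowest with Syk (-0.78) and Inpp5d (-0.64), over 13 mice. Spearman's rho was -0.82 for Syk and -0.70 for Inpp5d, and without the 2 mice with the most extreme Tyrobp values r was -0.63 and -0.62. Syk in turn had an r of 0.84 with Inpp5d and 0.69 with Pik3cd. The other values of r with Tyrobp were -0.40 for Pik3cd, -0.38 for Grb2, 0.34 for Ptpn6, 0.13 for Lyn, 0.05 for Plcg2 and 0.0044 for Vav1. Tyrobp (0.667 kb of exons) and Hcst (0.722 kb) have the shortest exons of the 10 and Syk (9.36 kb) and Inpp5d (7.60 kb) the longest, and libraries differed in the slope of expression on exon length, from -0.055 to 0.033 in PS2APP;Trem2wt and from -0.036 to 0.030 in PS2APP;Trem2ko mice. With an offset for exon length in each mouse, the log2 fold change of Tyrobp was -0.45 (adjusted p = 0.0217 from edgeR) and that of Hcst -0.45 (adjusted p = 0.149 from edgeR). The part of transcript length in the correlations was not tested.

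The 5 tested genes most like Tyrobp within genotypes were Ssr4, Tmbim4, Eef1b2, Ormdl2 and Tmed3, with r between 0.93 and 0.96 over 13 mice. None of these 5 was called between the genotypes, and their log2 fold changes were between -0.23 and -0.04. Among those most like Syk were Sufu, Lpar6, Ppp6r3 and Itga9, with r between 0.92 and 0.93, none called. The exons of these 4 genes spanned 5.40 to 9.38 kb and those of the genes most like Tyrobp 1.67 to 3.10 kb.

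Beyond the 10 members, 121 other genes of the pathway were listed by role, of which 117 passed the filter on low counts. Of these, 6 were lower in PS2APP;Trem2ko microglia and 1 was higher, beside 1.53% and 0.503% of all genes tested. The lists were chosen with earlier results of these data known, so these counts beside all genes are a description only. The median log2 fold change of the 117 genes was -0.03. The genes called were receptors (Treml2, Clec7a and Cd300lb), Src family kinases (Fgr and Fyn), the GTPase Rac1 and, in the other direction, the inhibitory receptor Pirb.

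**Figure D4:**
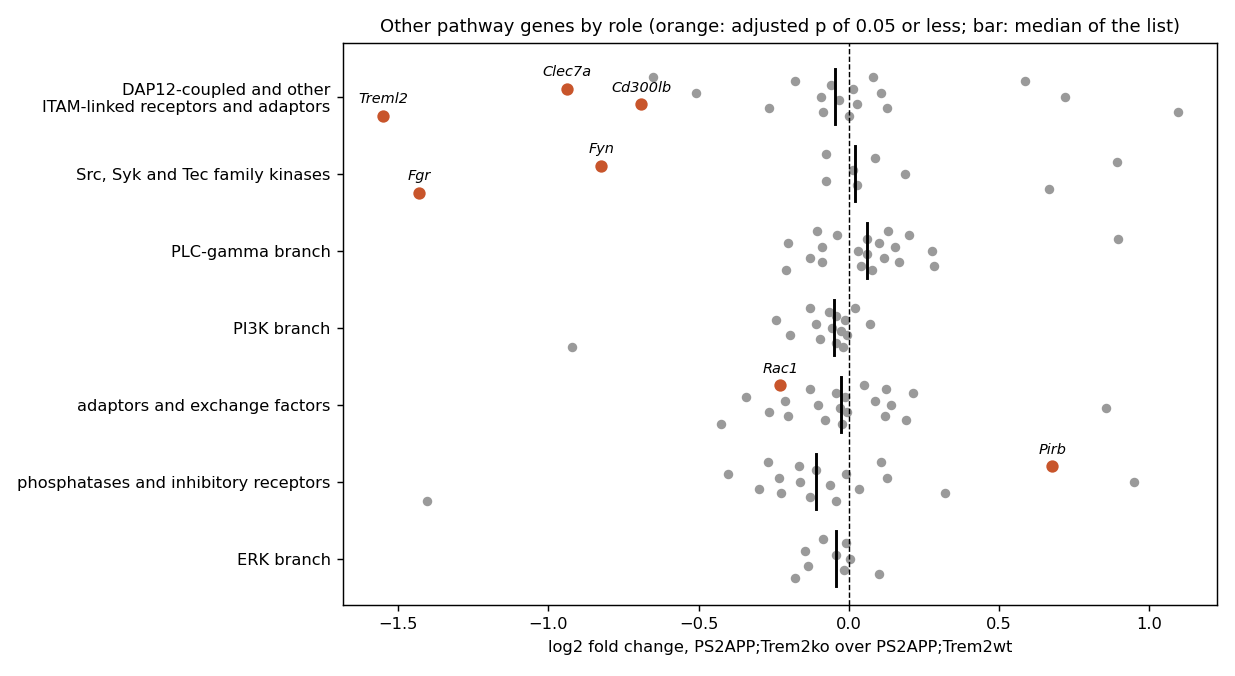
Log2 fold change, PS2APP;Trem2ko over PS2APP;Trem2wt, of the 117 other pathway genes tested, in 7 rows by role, with genes whose adjusted p was 0.05 or less named and in orange, and a bar at the median of each list. The list medians lie between -0.11 and 0.06. The 7 named genes are in the receptor, Src kinase, adaptor and inhibitor rows, where some genes not called lie further from the median than a named gene.

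Of 22 genes listed as DAP12-coupled and other ITAM-linked receptors and adaptors, 20 were tested, 3 were lower and none higher. Trem1 and Sirpb1b did not pass the filter. Pairing with DAP12 was not measured, and Treml2 counts here as a TREM family gene, not as an established DAP12 partner. Clec7a (Dectin-1) is the β-glucan receptor that signals to SYK through its own hemITAM. Its nRPKM was 101, 127, 206, 101, 132, 100 and 106 in PS2APP;Trem2wt replicates 1 to 7. In PS2APP;Trem2ko replicates 1 to 6 it was 72.5, 61.9, 69.2, 61.5, 80.6 and 45.2, below all PS2APP;Trem2wt mice. The log2 fold change of Clec7a was -0.94 (SE 0.17, adjusted p = 0.00891 from edgeR), and it was -0.78 without PS2APP;Trem2wt replicate 3, the mouse with the highest level.

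Treml2 is a receptor gene of the TREM cluster at chr17:48299498-48312533, close to the targeted gene Trem2 (chr17:48346401-48354147). Its level was 2.32 ± 0.54 (SD, n = 7) nRPKM in PS2APP;Trem2wt and 0.796 ± 0.42 (SD, n = 6) nRPKM in PS2APP;Trem2ko mice, without overlap. Treml2 fell by 1.55 on the log2 scale (SE 0.32, adjusted p = 0.0180 from edgeR). The paper left Treml1 out of its counts as an artifact of the inserted knockout cassette. An effect of the targeted allele itself on Treml2 was not tested. Cd300lb (CLM-7), a lipid-binding receptor that can pair with DAP12, had 3.35 ± 0.71 (SD, n = 7) against 2.09 ± 0.46 (SD, n = 6) nRPKM, also without overlap, and fell by 0.69 on the log2 scale (SE 0.16, adjusted p = 0.0316 from edgeR). The call on Cd300lb held in 7 of 13 fits with 1 mouse removed and was lost, among others, without PS2APP;Trem2wt replicate 3 (adjusted p = 0.0532 from edgeR). The most abundant genes of the list were Csf1r, the growth factor receptor of microglia that DAP12 also serves, and Fcgr3, an activating Fc receptor. Csf1r had 2001 ± 308 (SD, n = 7) against 1773 ± 154 (SD, n = 6) nRPKM (adjusted p = 0.437 from edgeR), with 14.3% of its 50-base words shared with Hmgxb3. Fcgr3 had 1129 ± 105 (SD, n = 7) against 1152 ± 94.9 (SD, n = 6) nRPKM (adjusted p = 0.912 from edgeR).

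Of 11 other Src, Syk and Tec family kinases, 10 were tested and 2 were lower. Fgr, a Src family kinase of myeloid cells, had 6.19 ± 2.90 (SD, n = 7) nRPKM in PS2APP;Trem2wt and 2.31 ± 0.98 (SD, n = 6) nRPKM in PS2APP;Trem2ko mice. The highest Fgr value, 12.2 nRPKM, was in PS2APP;Trem2wt replicate 3, and the groups overlapped only through PS2APP;Trem2ko replicate 3 at 3.998 and PS2APP;Trem2wt replicate 6 at 3.93 nRPKM. The log2 fold change of Fgr was -1.43 (SE 0.29, adjusted p = 0.0165 from edgeR), and -1.17 without PS2APP;Trem2wt replicate 3 (adjusted p = 0.0203 from edgeR). Fyn, a Src family kinase of many cell types, had 6.93 ± 1.90 (SD, n = 7) against 3.92 ± 1.03 (SD, n = 6) nRPKM and fell by 0.82 on the log2 scale (SE 0.20, adjusted p = 0.0452 from edgeR). The Fyn call held in 2 of the 13 fits that left out a mouse, those without PS2APP;Trem2wt replicate 1 or PS2APP;Trem2ko replicate 2. Without PS2APP;Trem2wt replicate 2, which had the highest neutrophil markers, log2 fold changes were -1.40 for Fgr, -0.94 for Clec7a and -1.53 for Treml2. All of these were still called in that fit, and Fyn and Rac1 were not. PS2APP;Trem2wt replicates 1, 3 and 6 (69.3, 46.9 and 92.4 nRPKM) also had higher neutrophil marker sums than any PS2APP;Trem2ko mouse. Removing 1 mouse thus leaves this imbalance, and the part of neutrophils in these differences was not tested. Tec, which is more abundant than Fgr and Fyn, did not differ detectably, with 27.3 ± 3.27 (SD, n = 7) against 26.0 ± 3.70 (SD, n = 6) nRPKM.

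**Figure D5:**
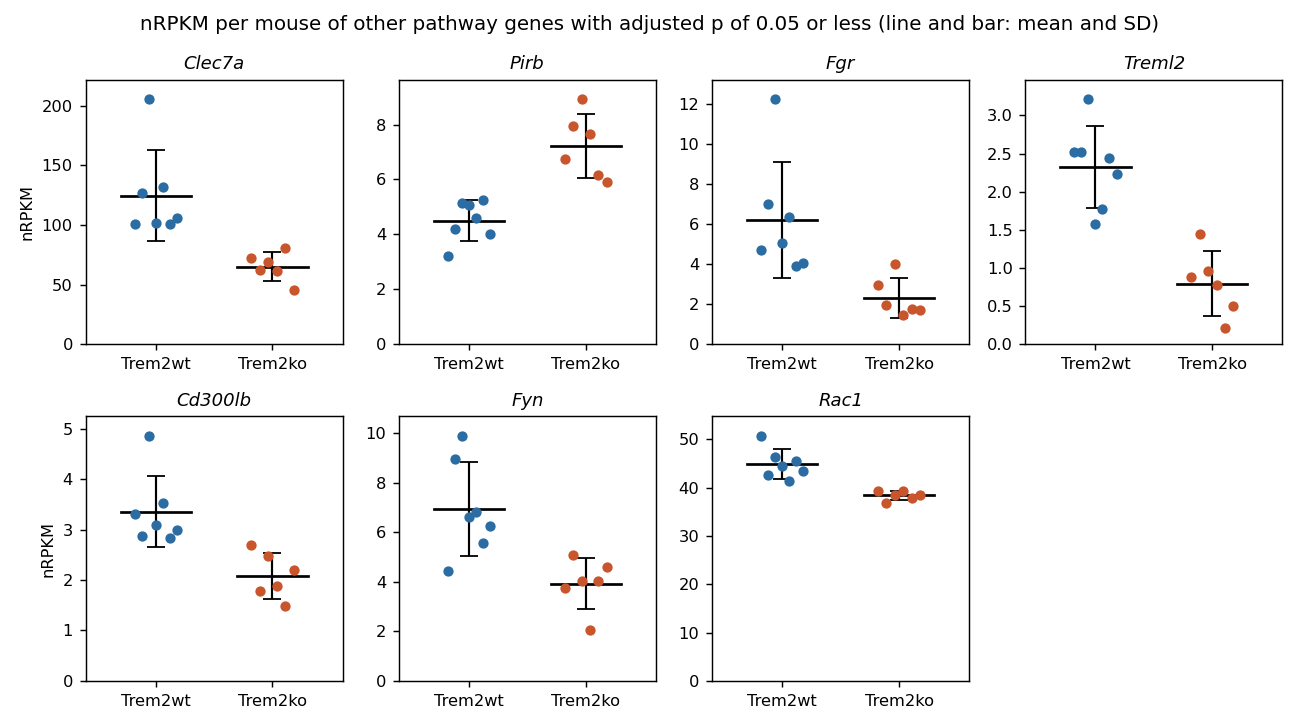
nRPKM in each mouse of the 7 other pathway genes called, with PS2APP;Trem2wt mice in blue, PS2APP;Trem2ko mice in orange, and the mean and SD in black; every axis starts at 0. PS2APP;Trem2wt replicate 3 is the highest point for Clec7a (206), Fgr (12.2), Treml2 (3.21), Cd300lb (4.86) and Fyn (9.88), and for Pirb all PS2APP;Trem2ko mice lie above all PS2APP;Trem2wt mice.

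Downstream branches held few calls. None of 21 genes of the PLCγ branch, 16 of the PI3K branch or 9 of the ERK branch was called in edgeR, with 3, 2 and 1 of them at an unadjusted p of 0.05 or less beside 14.8% of all genes tested. The median log2 fold changes were 0.06, -0.05 and -0.04. DESeq2 and voom+limma each called 1 of these genes, Pik3r3, a regulatory subunit of PI3K with an adjusted p of 0.0129 in DESeq2 and of 0.0830 in edgeR, which is named because of these values. In the PLCγ branch, Prkcd, a protein kinase C, had 96.7 ± 13.5 (SD, n = 7) against 108.8 ± 5.73 (SD, n = 6) nRPKM. Rasgrp3, a diacylglycerol-responsive Ras activator, had 66.1 ± 4.32 (SD, n = 7) against 61.5 ± 7.62 (SD, n = 6) nRPKM. In the PI3K branch, Pik3ap1 (BCAP), an adaptor of PI3K, had 82.2 ± 8.81 (SD, n = 7) against 81.3 ± 8.15 (SD, n = 6) nRPKM, and the kinase Akt1 58.3 ± 9.88 (SD, n = 7) against 57.3 ± 6.63 (SD, n = 6) nRPKM. In the ERK branch, the kinase Map2k1 (MEK1) had 65.7 ± 4.62 (SD, n = 7) against 58.0 ± 4.15 (SD, n = 6) nRPKM, and its log2 difference of -0.18 was not called (adjusted p = 0.204 from edgeR), and Mapk3 (ERK1) had 50.1 ± 3.95 (SD, n = 7) against 47.3 ± 2.59 (SD, n = 6) nRPKM.

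Of 22 adaptors and exchange factors, all tested, 1 was lower in edgeR. DESeq2 also called Cbl lower (log2 fold change -0.34, adjusted p = 0.0287 from DESeq2), which edgeR did not call. Rac1, the GTPase activated by VAV proteins, had 44.9 ± 3.05 (SD, n = 7) nRPKM in PS2APP;Trem2wt and 38.4 ± 0.95 (SD, n = 6) nRPKM in PS2APP;Trem2ko mice, without overlap. Rac1 fell by 0.23 on the log2 scale (SE 0.06, adjusted p = 0.0483 from edgeR), the smallest of the calls, and none of the 13 fits that left out a mouse called it. Rac1 also shares 50.3% of its 50-base words with Daglb on the opposite strand, which leaves part of its reads ambiguous. The most abundant genes of the list were Cdc42, a GTPase of the same family, with 168.0 ± 7.43 (SD, n = 7) against 159.4 ± 8.32 (SD, n = 6) nRPKM, and the SYK substrate Blnk, with 98.3 ± 7.48 (SD, n = 7) against 104.7 ± 3.42 (SD, n = 6) nRPKM, and neither was called.

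Of 20 phosphatases and inhibitory receptors, 19 were tested and 1 was higher. Lilrb4a did not pass the filter, with at most 4 counts in any mouse, and 47.2% of its 50-base words also occur in other genes. Pirb, an inhibitory receptor that recruits SHP-1 and SHP-2 through its tyrosine motifs, had 3.21, 4.201, 5.15, 5.07, 4.61, 5.27 and 4.02 nRPKM in PS2APP;Trem2wt replicates 1 to 7. In PS2APP;Trem2ko replicates 1 to 6 it had 6.74, 7.95, 8.92, 7.64, 6.15 and 5.90 nRPKM, above every PS2APP;Trem2wt mouse. The log2 fold change of Pirb was 0.68 (SE 0.12, adjusted p = 0.00891 from edgeR), and the call held in all 23 alternative fits. Of the 50-base words of Pirb 33.97% also occur in relatives such as Lilra6 and Pira2, which leaves part of its reads ambiguous. The most abundant inhibitory receptors were Sirpa, the receptor for CD47, with 777 ± 127 (SD, n = 7) against 722 ± 109 (SD, n = 6) nRPKM, and the collagen receptor Lair1, with 119 ± 13.01 (SD, n = 7) against 118 ± 12.9 (SD, n = 6) nRPKM, and neither was called.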

How the data were processed

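RNA-Seq was performed on sorted brain myeloid cells of 13 PS2APP mice. Per the labels and the study's methods, the authors prepared libraries with the SMART-seq v4 kit, aligned 50-base single-end reads to GRCm38 with GSNAP and deposited, for each mouse, counts of reads per gene and nRPKM, which is RPKM scaled by a size factor. Whether counting used the strand is not given in the sources used here. Names and positions were taken from GENCODE M21.

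Counts were tested with edgeR 4.0.16 (R 4.3.3; filterByExpr by genotype, TMM, glmQLFTest, no covariate), and p-values were adjusted over 17086 genes by the Benjamini-Hochberg method. A gene was called at an adjusted p of at most 0.05, and standard errors are the log2 fold change over the square root of F. For ratios of nRPKM an exact permutation test, two-sided, was used in Python 3.11.15. Correlations used TMM-scaled log2 CPM after the genotype means were subtracted. Shared sequence was the share of a gene's 50-base transcript words found in another gene, on either strand. Tests were checked on simulated data.

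Genes named are the members, Trem2, called pathway genes, the 2 most abundant tested genes of each pathway list, and the 5 genes most like Tyrobp and Syk, of which a few are not reported here. Fcer1g, Pik3r3, Cbl and single markers were named after their values were seen. The members and lists were chosen with earlier results of these data known. Alternatives were RLE scaling, voom+limma (limma 3.58.1), DESeq2 1.42.0, other filters, a term for sex, the females alone, limma on log2 nRPKM with a pseudocount of 0.1 or 1, a 2-fold cutoff and leaving out each mouse. An exon length offset was added after the data were seen. Counts of any 2 mice of 1 genotype (36 pairs) had a chi-square at least 18.1 times its sampling value, so no library looked deposited more than once.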

Additional observations from a re-analysis of the deposited data

Results flagged for a closer look

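Of 44 groups of values checked (the members, the other called pathway genes and the 5 ratios, in each genotype), 4 had 1 mouse whose gap to the others exceeded Dixon's critical value, 0.568 for 7 mice, a check that chance trips in about 5% of groups. All 4 concerned the same mouse, PS2APP;Trem2wt replicate 3. Its Clec7a level was 205.5 nRPKM, where the other 6 mice of its genotype had 100.5 to 131.7 nRPKM. Its Fgr level was 12.2 nRPKM against 3.93 to 7.01, and its Cd300lb level was 4.86 nRPKM against 2.83 to 3.52. Its log2 ratio of Syk to Ptpn6 was -3.55, with the others between -3.09 and -2.77. Without this mouse the log2 fold changes of Clec7a, Fgr and Cd300lb were -0.78, -1.17 and -0.58, and the last was no longer called (adjusted p = 0.0532 from edgeR). Whether genotype differences depend on sex could not be judged for the 17 member and called pathway genes. Only 3 mice were male in all, and 1 of them was PS2APP;Trem2ko. The interaction term from edgeR, male minus female on the log2 scale, was largest in size for Treml2, at -2.11. The PS2APP;Trem2ko male, replicate 5, had the lowest Treml2 level of all mice, 0.217 nRPKM.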

How the results depend on the processing

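The count of 1 lower member held in 20 of 24 alternatives. It was 0 with female mice only (log2 fold change of Tyrobp -0.46, adjusted p = 0.0709 from edgeR) and with a 2-fold cutoff, and it was between 0 and 1 with 1 mouse left out. No alternative called a member higher. The 6 lower pathway genes became 2 with female mice only, 2 with a 2-fold cutoff and between 3 and 5 with 1 mouse left out (3 without PS2APP;Trem2wt replicate 3 or 5 or PS2APP;Trem2ko replicate 5), and the 1 higher became 0 with the 2-fold cutoff. The count of lower pathway genes rose to 7 in voom+limma and 8 in DESeq2. Clec7a, Treml2 and Pirb were called in all 23 alternative fits, Fgr in 22, Cd300lb in 16, Fyn in 10 and Rac1 in 6. Beyond the smaller groups and the size threshold, the cause of these lost calls was not tested.

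Values near 0 changed sign. The log2 difference of the Tyrobp to Hcst ratio was -0.048 with female mice only and between -0.054 and 0.061 with 1 mouse left out. Leaving out 1 mouse gave -0.028 to 0.10 for Syk to Ptpn6, -0.090 to 0.0011 for Plcg2 to Inpp5d, and, as log2 fold changes, -0.047 to 0.067 for Inpp5d, -0.077 to 0.040 for Pik3cd and -0.042 to 0.050 for Ptpn6. Pik3cd was also 0.0043 with female mice only, and 0.0018 and 0.0014 in limma on nRPKM with pseudocounts of 0.1 and 1. None of these passed a test under any setting.

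No paired analysis was possible because the labels do not say which mice form a pair, and replicate numbers follow the order of accession. Per the study's methods, 1 mouse of each genotype was in general taken through perfusion and sorting at the same time, so all tests here treat as unpaired mice that were mostly handled in pairs. At this number of mice the median 95% interval of a gene reached 0.33 to either side on the log2 scale, so small differences could be missed. That width is not the limit of a call, since Hcst at -0.48 was not called and Rac1 at -0.23 was. RNA levels alone were measured, not protein or phosphorylation.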
